A study of Mus musculus with 10 samples.

Results

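Polycomb repressive complex 2 (PRC2) was followed through its catalytic subunits Ezh1 and Ezh2, its core subunits Eed and Suz12, its histone-binding subunits Rbbp4 and Rbbp7 and the accessory subunit Jarid2. Every probe set that the platform annotation assigns to 1 of these 7 genes alone was taken, which gave 22 of the 45037 probe sets in the table. Of all probe sets, 34945 carried a single gene symbol, for 18193 genes. All 22 probe sets and all 7 genes passed the filter on dim features, and 13644 genes were tested in all. Ezh2 had 1 probe set and the other 6 genes had several. The brightest probe set, by its mean over all arrays, stood for a gene, and the others are given beside it.

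The RNA came from 3T3-L1 cells, a mouse line of preadipocytes, which are fibroblast-like precursors of fat cells. They were kept in DMEM plus calf serum and received, by way of Metafectene Pro, 60 nM of a scrambled control siRNA (siC) or of an siRNA against Lsd1 (siLsd1), the histone demethylase encoded by Kdm1a. The 24 h groups were of passage 19 and held 2 arrays for each siRNA, and the 48 h groups were of passage 21 and held 3 arrays for each siRNA. The medium was not renewed in any group, and none is untransfected. Time after transfection, passage and age of the medium therefore cannot be told apart in any comparison of 48 h with 24 h. Replicates carry the label biological without saying how they were grown, so a p-value here speaks for the spread of these arrays alone.

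PRC2 places methyl groups on lysine 27 of histone H3, a mark of silenced chromatin. Ezh2 or Ezh1 carries the catalytic site, Eed binds the methylated lysine and stimulates the enzyme, Suz12 holds the complex together, and Rbbp4 and Rbbp7 bind histones in PRC2 and in several other complexes. Jarid2 helps to recruit the complex and to stimulate it. Ezh2 is known as a gene of dividing cells under E2F control, whereas Ezh1 is the form typical of resting cells. In preadipocytes, Ezh2 has been described as a repressor of Wnt genes, whose products hold back fat cell formation.

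Values are deposited probe set intensities on a linear scale. Changes are on the log2 scale from 1 limma fit over the 10 arrays and all genes tested. A gene was called at a Benjamini-Hochberg adjusted p under 0.05, and every adjusted p given is from limma. The median intensity of an array lay between 35.6 and 40.6, and precision is limited by how few arrays there are. On the brightest Kdm1a probe set, the siC arrays read 1559 and 1621 at 24 h and 1596, 1787 and 1775 at 48 h, while the siLsd1 arrays read 1001 and 971 at 24 h and 1352, 1336 and 897 at 48 h. Kdm1a fell by 0.69 at 24 h (adjusted p = 0.0473) and by 0.55 at 48 h (adjusted p = 0.0338). That 48 h change was -0.35 (adjusted p = 0.00277) without siLsd1 48 h replicate 3, an array that differed from its group.

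Of the 7 preadipocyte and fibroblast markers on the array, 7 were above the dim level. Their summed intensity per array was 32280 to 33816 in siC and 28467 to 28811 in siLsd1 cells at 24 h, and 33810 to 35592 and 23210 to 31599 at 48 h, so it was lower with siLsd1 at both times without overlap. Taken singly, 61.4% of all genes did not overlap between the siRNAs at 24 h and 37.5% at 48 h. The median log2 change of these markers for siLsd1 against siC was -0.32 at 24 h and -0.44 at 48 h, beside -0.02 and -0.02 over all genes. It was negative for 5 and positive for 2 of the markers at 24 h, and negative for 6 and positive for 1 at 48 h. At each time 0 were called as higher and 1 as lower, beside 5.39% and 12.7% of all genes called. The one called was Thy1, a surface protein of fibroblasts. Of the 7, 4 were lower at 24 h and 2 at 48 h without siLsd1 48 h replicate 3, with a median of -0.17 at 48 h. In that fit 25.5% and 18.1% of all genes were called. Of the mature adipocyte markers 1 of 4 was above it (summed intensity 58.7 to 109), of the macrophage markers 5 of 6 (with Ptprc dim) and of the endothelial markers 2 of 5 (97.9 to 165, with Pecam1, Cdh5 and Emcn dim). The summed macrophage markers read 592 to 609 in siC and 658 to 748 in siLsd1 cells at 24 h, and 639.7 to 678 and 683 to 747 at 48 h, higher with siLsd1 at both times without overlap. Again, 61.4% and 37.5% of all genes did not overlap at these times. Single macrophage markers changed by -0.75 to 0.58 at 24 h, where 4 were positive and 1 negative, and by 0.03 to 0.47 at 48 h. In the fit to all arrays none of these last 3 lists had a gene called between the siRNAs or over time. With siLsd1 48 h replicate 3 left out, Cd14 was called as higher at 24 h (0.27, adjusted p = 0.0167) and for the mean of both times (0.22, adjusted p = 0.00561), and is named here after its value was seen. The part of these markers in the siLsd1 changes of the PRC2 genes was not tested.

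One array, siLsd1 48 h replicate 3, was unlike its replicates. Across 6943 genes, the SD of its log2 differences from its replicates was 0.441 and 0.439, against 0.0892 to 0.205 for the other pairs of replicates. Its distance from the siLsd1 24 h arrays was smaller, at 0.361 and 0.353. It enters every fit through the shared estimate of the spread, so the results on the PRC2 genes are also given without it.

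The clearest differences lay between 48 h and 24 h. In siC cells Ezh2, Suz12 and Rbbp7 fell, Ezh1 rose, and the other 3 genes did not pass the test. These 4 called genes, 1 higher and 3 lower, stand against 24.2% of all genes tested that were called in this comparison (12% higher, 12.2% lower). In siLsd1 cells Ezh2 and Suz12 fell and Ezh1 rose, 3 of 7 genes against 14.4% of all genes (7.25% higher, 7.13% lower). Between siLsd1 and siC, 0 of the 7 genes were called at 24 h, where 5.39% of genes were called (2.6% higher, 2.79% lower), and 0 at 48 h, where 12.7% were (6% higher, 6.67% lower). None of the 22 probe sets was called at 24 h or 48 h either, against 2.65% and 8.08% of all probe sets. At an unadjusted p under 0.05 there were 1 and 2 of the 7, beside 3069 and 4327 of the 13644 genes tested. Averaged over both times, Eed alone was called, as higher, where 23.8% of genes were called (10.1% higher, 13.7% lower). For the shift in the siLsd1 change from 24 h to 48 h, 0 of the 7 genes and 0% of all genes were called, with 1 and 896 genes at an unadjusted p under 0.05.

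**Figure D1:**
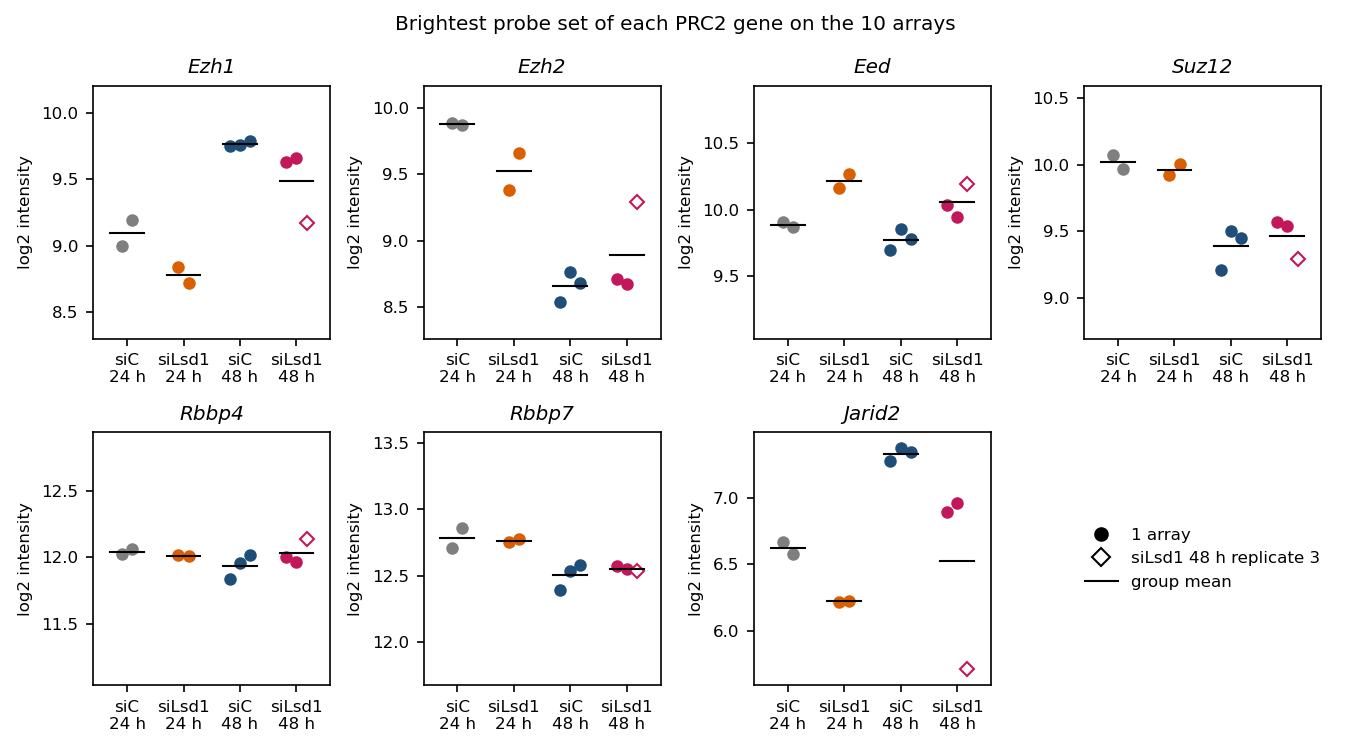
Log2 intensity of the brightest probe set of each of the 7 PRC2 genes on the 10 arrays, by group, with the group mean as a bar and siLsd1 48 h replicate 3 as an open diamond; every panel spans the same number of log2 units. Ezh2 and Suz12 lie lower and Ezh1 higher at 48 h than at 24 h in both treatments. The Rbbp4 groups overlap with their neighbours in the order of means. For Rbbp4, siC at 24 h overlaps neither siLsd1 at 24 h nor siC at 48 h.

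**Figure D2:**
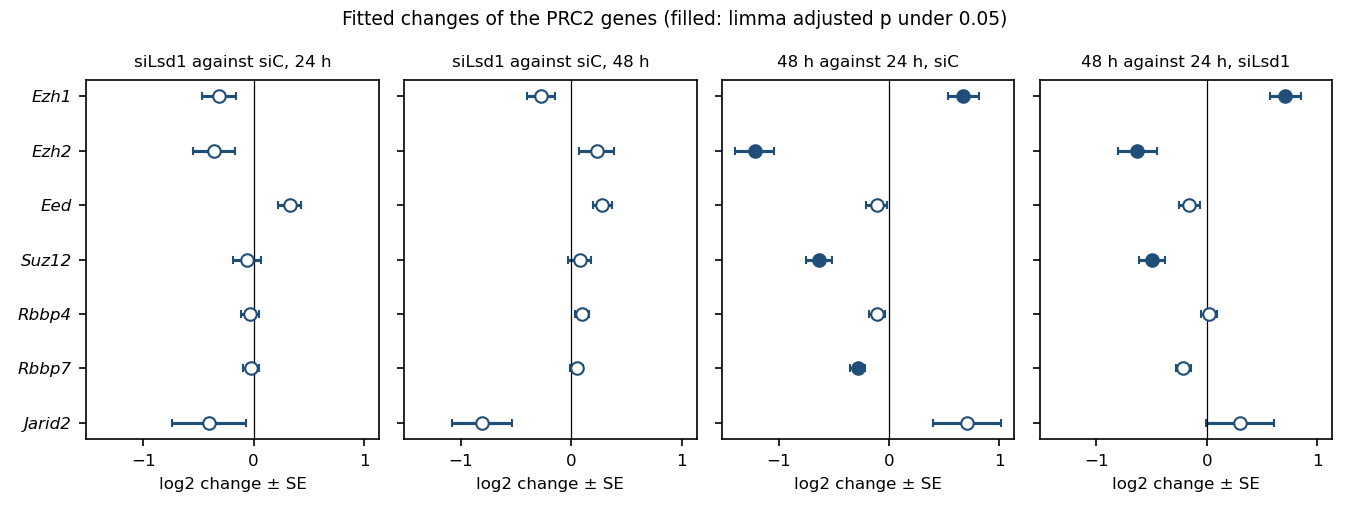
Fitted log2 change of each PRC2 gene ± SE in 4 comparisons, filled where the limma adjusted p was under 0.05. In the siLsd1 comparisons no point is filled, while Ezh1, Ezh2 and Suz12 are filled in both time comparisons and Rbbp7 in siC cells.

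Without siLsd1 48 h replicate 3 more genes passed the test in each of the 6 comparisons. At 24 h, 25.5% of all genes were then called, and of the PRC2 genes Eed was higher and Ezh1, Ezh2 and Jarid2 were lower. At 48 h, 18.1% of genes were called, with Eed higher and Jarid2 lower. For the mean of both times 33.8% were called, with Eed higher and Ezh1 and Jarid2 lower. Over time, 40.4% of genes were called in siC cells, where Jarid2 joined the rises, and 38.3% in siLsd1 cells, where Jarid2 joined the rises and Eed and Rbbp7 the falls. That shift was called for 1.47% of genes and for 0 of the 7.

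The promoters of the 4 genes that changed with time in siC cells are shown because 3 of them fell together and the fourth rose. Each is the stretch of 250 bases before the transcription start in the RefSeq annotation of GRCm38.p6, in which 7 of the 7 genes were found, with a second start for Jarid2. Capitals mark the letters CCAAT and 4 words of the E2F site, each searched on both strands. The first word is TTGGCGC and the second is TTCCCGC, while the third reads TTCGCGC and the last reads TTGCCGC. Ezh2 lies at chr6:47595031-47595280 on the minus strand, Suz12 at chr11:79992856-79993105 on the plus strand, Rbbp7 at chrX:162760122-162760371 on the plus strand and Ezh1 at chr11:101226464-101226713 on the minus strand.
Ezh2: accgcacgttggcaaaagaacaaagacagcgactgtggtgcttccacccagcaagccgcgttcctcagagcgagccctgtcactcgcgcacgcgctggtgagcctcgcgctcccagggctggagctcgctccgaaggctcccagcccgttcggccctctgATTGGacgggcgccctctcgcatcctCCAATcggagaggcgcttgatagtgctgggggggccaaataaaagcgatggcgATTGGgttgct
Suz12: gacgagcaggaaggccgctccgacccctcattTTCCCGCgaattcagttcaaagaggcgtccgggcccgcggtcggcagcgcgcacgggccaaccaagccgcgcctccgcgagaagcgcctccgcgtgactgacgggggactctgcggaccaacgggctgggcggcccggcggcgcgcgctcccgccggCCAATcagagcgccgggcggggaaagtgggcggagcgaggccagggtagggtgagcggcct
Rbbp7: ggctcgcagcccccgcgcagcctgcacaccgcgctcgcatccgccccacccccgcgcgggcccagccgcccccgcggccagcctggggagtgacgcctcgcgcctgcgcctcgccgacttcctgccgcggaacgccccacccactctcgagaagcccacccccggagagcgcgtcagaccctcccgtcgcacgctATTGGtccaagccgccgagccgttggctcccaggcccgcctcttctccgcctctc
Ezh1: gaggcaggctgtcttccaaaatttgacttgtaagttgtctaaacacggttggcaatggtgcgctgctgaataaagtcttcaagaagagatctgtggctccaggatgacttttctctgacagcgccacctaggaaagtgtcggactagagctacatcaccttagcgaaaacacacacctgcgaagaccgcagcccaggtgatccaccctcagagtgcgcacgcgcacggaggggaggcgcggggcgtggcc

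In these windows CCAAT occurred 3 times in Ezh2 and 1 time each in Suz12 and Rbbp7, and neither motif occurred in Ezh1. CCAAT was found in 5 of the 7 genes, the others being Rbbp4 and Jarid2, against 37.5% of the 27025 genes and 33.8% of the 32851 promoter windows of the annotation. An E2F word was found in Suz12 and, as a pair of overlapping words on opposite strands, in Rbbp4, against 9.01% of all genes and 7.89% of all windows. Ezh2 held none of the 4 E2F words in this window. The share of G and C was 76.4% in Rbbp7, 73.6% in Suz12, 63.6% in Ezh2 and 55.2% in Ezh1, with a median of 52.4% over all windows. These matches describe letters and were not tested against the changes in level.

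Ezh2, the catalytic subunit of dividing cells, read 948 and 934 on the siC 24 h arrays, 666 and 810.1 on the siLsd1 24 h arrays, 372, 434 and 411 on the siC 48 h arrays and 419.6, 408 and 626 on the siLsd1 48 h arrays. The 24 h arrays lay above all 48 h arrays, and siLsd1 48 h replicate 3 was the highest of the 48 h arrays. The times did not overlap for 55.6% of all genes in siC cells and for 43.1% in siLsd1 cells. The share separated over both siRNAs together was not counted. In siC cells the mean went from 941 ± 9.26 (SD, n = 2) to 406 ± 31.3 (SD, n = 3), a log2 change of -1.22 with an SE of 0.18 (2.32-fold lower, adjusted p = 0.00108). In siLsd1 cells it went from 738 ± 102 (SD, n = 2) to 485 ± 123 (SD, n = 3), a log2 change of -0.63 with an SE of 0.18 (1.55-fold lower, adjusted p = 0.0401). The siC fall kept its call with each array left out in turn. The siLsd1 fall lost it in 9 of the 10 such fits, with an adjusted p of up to 0.284 without siLsd1 24 h replicate 2, and was -0.83 (adjusted p = 8.34e-05) without siLsd1 48 h replicate 3. Adjusted over all probe sets, it missed the threshold (adjusted p = 0.0506).

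At 24 h both siLsd1 arrays lay below both siC arrays for Ezh2. In this comparison of 2 arrays with 2 the groups did not overlap for 61.4% of all genes. The log2 change was -0.36 (SE 0.19, adjusted p = 0.312), with a 95% interval of -0.79 to 0.07, and it passed the test without siLsd1 48 h replicate 3 (adjusted p = 0.0241). At 48 h the arrays overlapped, and the log2 change was 0.23 (SE 0.16, adjusted p = 0.346), or 0.03 (adjusted p = 0.861) without that replicate. The shift in the siLsd1 change from 24 h to 48 h, 0.59 with an SE of 0.25, did not pass (adjusted p = 0.727). It was 0.39 (adjusted p = 0.205) without siLsd1 48 h replicate 3. In the order of its levels, Ezh2 was lowest in siC at 48 h, overlapping siLsd1 at 48 h, then siLsd1 at 24 h and siC at 24 h, which overlapped none of their neighbours.

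Ezh1, the catalytic subunit of resting cells, ran the other way with time. Its brightest probe set read 511 and 585 on the siC 24 h arrays, 458 and 421 on the siLsd1 24 h arrays, 861, 869 and 885 on the siC 48 h arrays and 793, 812 and 578 on the siLsd1 48 h arrays. The 48 h arrays of each treatment lay above its 24 h arrays, and siLsd1 48 h replicate 3 was the lowest at 48 h. Ezh1 rose from 548 ± 52.5 (SD, n = 2) to 871 ± 12.1 (SD, n = 3) in siC cells, a log2 change of 0.67 with an SE of 0.14 (1.59-fold, adjusted p = 0.00764). In siLsd1 cells it rose from 439 ± 26.3 (SD, n = 2) to 728 ± 129.6 (SD, n = 3), a log2 change of 0.71 with an SE of 0.14 (1.64-fold, adjusted p = 0.00995). Groups did not overlap in time for 55.6% of all genes in siC cells and for 43.1% in siLsd1 cells. The siC rise missed the threshold without siC 24 h replicate 1 (0.58, adjusted p = 0.0808), and the siLsd1 rise missed it without siLsd1 24 h replicate 1 (0.77, adjusted p = 0.0636) or replicate 2 (0.65, adjusted p = 0.104). Without siLsd1 48 h replicate 3 the rises were 0.67 (adjusted p = 2.82e-05) and 0.87 (adjusted p = 1.22e-05). With the probe sets of each gene averaged, neither rise was called (0.61, adjusted p = 0.122, in siC cells and 0.26, adjusted p = 0.592, in siLsd1 cells).

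Against siC, Ezh1 read lower on both siLsd1 arrays at 24 h and on all 3 at 48 h, where groups did not overlap for 37.5% of all genes. The log2 change was -0.32 at 24 h (SE 0.16, adjusted p = 0.265) and -0.28 at 48 h (SE 0.13, adjusted p = 0.165), neither of which passed. For the mean of both times it was -0.30 (adjusted p = 0.0568), just above the threshold. The adjusted p was 0.0451 without siLsd1 48 h replicate 1 and 0.0368 without replicate 2. Leaving out siLsd1 48 h replicate 3 gave changes of -0.32 at 24 h (adjusted p = 0.0142), -0.12 at 48 h (adjusted p = 0.306) and -0.22 for the mean (adjusted p = 0.00948). The other 3 probe sets of Ezh1 read between 2.78 and 73.0 on the 10 arrays, and none was called. Their log2 changes with time in siC cells were 0.13, 1.95 and -0.33, the second of them resting on the reading of 2.78 on siC 24 h replicate 2.

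The 2 catalytic subunits thus moved in opposite directions with time. The log2 difference of Ezh1 minus Ezh2 was -0.89 and -0.68 on the siC 24 h arrays, -0.54 and -0.94 on the siLsd1 24 h arrays, 1.21, 1.0 and 1.11 on the siC 48 h arrays and 0.92, 0.99 and -0.12 on the siLsd1 48 h arrays. It was higher at 48 h than at 24 h on every array, least so on siLsd1 48 h replicate 3. Since the 2 probe sets need not respond alike, the sign of the difference on an array carries no meaning, and only its shift between arrays can be read.

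**Figure D3:**
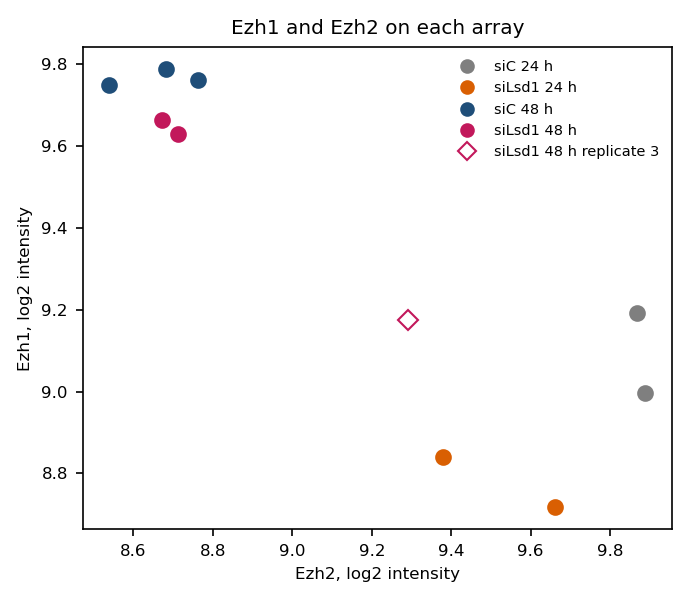
Log2 intensity of Ezh1 against that of Ezh2 on each of the 10 arrays, coloured by group, with siLsd1 48 h replicate 3 as an open diamond. The other 5 arrays of 48 h lie at the upper left (high Ezh1, low Ezh2) and the 24 h arrays at the lower right. The diamond lies between them on the Ezh2 axis and within the range of the 24 h arrays on the Ezh1 axis.

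Eed, the subunit that binds methylated lysine 27, was the only one of the 7 genes called for siLsd1 against siC. It read 959 and 934 on the siC 24 h arrays, 1145 and 1233 on the siLsd1 24 h arrays, 828, 927 and 877 on the siC 48 h arrays and 1047, 985 and 1172 on the siLsd1 48 h arrays. All 5 siLsd1 arrays lay above all 5 siC arrays. At the single times, groups did not overlap for 61.4% of all genes at 24 h and for 37.5% at 48 h. The share of genes separated over both times together was not counted. The mean was 947 ± 18 (SD, n = 2) in siC and 1189 ± 62.1 (SD, n = 2) in siLsd1 cells at 24 h, and 877 ± 49.1 (SD, n = 3) and 1068 ± 95.3 (SD, n = 3) at 48 h. Averaged over both times Eed rose by 0.31 on the log2 scale (SE 0.067, 1.24-fold, adjusted p = 0.0107), where 23.8% of genes were called. At the single times the log2 change was 0.33 (SE 0.10, adjusted p = 0.0962) and 0.28 (SE 0.084, adjusted p = 0.0542), neither of which passed.

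The Eed call for the mean of both times was lost without siLsd1 24 h replicate 2 (0.28, adjusted p = 0.0558). At 48 h Eed was called without siLsd1 48 h replicate 2 (0.34, adjusted p = 0.0413). With siLsd1 48 h replicate 3 left out, Eed was called at 24 h (0.33, adjusted p = 0.00709), at 48 h (0.21, adjusted p = 0.0486) and for the mean (0.27, adjusted p = 0.00154). A second probe set of Eed read 11.2 to 23.3 and did not follow the first, with log2 changes of -0.62 at 24 h and 0.11 at 48 h that were not called. When the 2 probe sets were averaged, the mean change of Eed was 0.02 (adjusted p = 0.898). With time, Eed changed by -0.11 in siC cells (adjusted p = 0.442) and by -0.16 in siLsd1 cells (adjusted p = 0.307), and the latter passed without siLsd1 48 h replicate 3 (-0.23, adjusted p = 0.0299).

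Suz12, which holds the core complex together, was measured by 6 probe sets, and its fall with time was seen on all of them. The brightest read 1078 and 1003 on the siC 24 h arrays, 969 and 1027 on the siLsd1 24 h arrays, 592, 725 and 699 on the siC 48 h arrays and 758, 742 and 626 on the siLsd1 48 h arrays. No 48 h array reached the level of a 24 h array. Within 1 siRNA, the times did not overlap for 55.6% of all genes (siC) and 43.1% (siLsd1). The siC mean went from 1040.5 ± 53.2 (SD, n = 2) to 672 ± 70.3 (SD, n = 3), a log2 change of -0.64 with an SE of 0.12 (1.55-fold lower, adjusted p = 0.00389). The siLsd1 mean went from 998 ± 41 (SD, n = 2) to 709 ± 71.8 (SD, n = 3), a log2 change of -0.50 with an SE of 0.12 (1.41-fold lower, adjusted p = 0.0196). The siC fall was called with each array left out in turn. The siLsd1 fall lost its call without siLsd1 24 h replicate 1 (-0.54, adjusted p = 0.104) or replicate 2 (-0.46, adjusted p = 0.158). Without siLsd1 48 h replicate 3 the changes were -0.64 (adjusted p = 1.32e-04) and -0.41 (adjusted p = 0.00481).

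The other 5 Suz12 probe sets differed between 48 h and 24 h in siC cells by -0.76, -0.73, -0.75, -0.84 and -0.56 on the log2 scale. Fitted with all probe sets, of which 20.9% were called in this comparison (10.4% as higher, 10.5% as lower), 4 of the 6 were called as lower, and the 2 not called had adjusted p-values of 0.0549 and 0.107. In siLsd1 cells all 6 were negative and 3 were called as lower, against 10.6% of all probe sets called. Between siLsd1 and siC the groups' arrays of the brightest probe set overlapped at both times. Suz12 changed by -0.06 at 24 h (adjusted p = 0.832), with a 95% interval of -0.34 to 0.22, and by 0.08 at 48 h (adjusted p = 0.648), with an interval of -0.15 to 0.31. The 48 h change was 0.16 (adjusted p = 0.225) without siLsd1 48 h replicate 3.

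Rbbp7, a histone-binding subunit shared with other chromatin complexes, read 6711 and 7449 on the siC 24 h arrays, 6914 and 7017 on the siLsd1 24 h arrays, 5385, 5951 and 6129 on the siC 48 h arrays and 6088, 6015 and 5944 on the siLsd1 48 h arrays. All 48 h arrays lay below all 24 h arrays. Within 1 siRNA, the times did not overlap for 55.6% of all genes (siC) and 43.1% (siLsd1). In siC cells it fell from 7079.8 ± 522 (SD, n = 2) to 5822 ± 388 (SD, n = 3), a log2 change of -0.28 with an SE of 0.067 (1.22-fold lower, adjusted p = 0.0133). The call was lost without siC 24 h replicate 2 (-0.21, adjusted p = 0.134) and in a fit without the intensity trend (-0.28, adjusted p = 0.0582). In siLsd1 cells the mean was 6965 ± 72.6 (SD, n = 2) at 24 h and 6016 ± 72.0 (SD, n = 3) at 48 h, and the log2 change of -0.21 did not pass (adjusted p = 0.0620). That change was called without siC 48 h replicate 1 (-0.21, adjusted p = 0.0369) and without siLsd1 48 h replicate 3 (-0.20, adjusted p = 0.0300). It was also called with the lowest 50% of genes left out (adjusted p = 0.0462) or with arrays centred on their median (-0.29, adjusted p = 0.0150). The second Rbbp7 probe set moved by -0.28 in siC cells (adjusted p = 0.0101 over all probe sets) and by -0.17 in siLsd1 cells (adjusted p = 0.103). Between siLsd1 and siC the log2 change of Rbbp7 was -0.02 at 24 h, with a 95% interval of -0.19 to 0.14, and 0.05 at 48 h, with an interval of -0.08 to 0.18, and at 48 h 0.06 (adjusted p = 0.566) without siLsd1 48 h replicate 3.

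Rbbp4, the close relative of Rbbp7, was not called in any of the 6 comparisons on its brightest probe set. It read 4164 and 4279 on the siC 24 h arrays, 4147 and 4115 on the siLsd1 24 h arrays, 3661, 3982 and 4144 on the siC 48 h arrays and 4097, 3988 and 4515 on the siLsd1 48 h arrays. Neighbouring groups in the order of their means overlapped throughout. The siC arrays of 24 h overlapped neither the siLsd1 arrays of 24 h nor the siC arrays of 48 h. Groups did not overlap in these comparisons for 61.4% and 55.6% of all genes. Its log2 change was -0.03 and 0.10 for siLsd1 against siC at 24 h and 48 h, -0.11 with time in siC cells (adjusted p = 0.338) and 0.02 with time in siLsd1 cells (adjusted p = 0.882). The 95% interval of the siC change with time was -0.27 to 0.06. Leaving out siLsd1 48 h replicate 3 gave 0.04 for siLsd1 against siC at 48 h (adjusted p = 0.644) and -0.03 with time in siLsd1 cells (adjusted p = 0.725), and no call.

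One probe set of Rbbp4 did not follow the other 3. It read 43.4 and 55.3 on the siC 24 h arrays, 44.9 and 41.5 on the siLsd1 24 h arrays, 171, 216 and 228 on the siC 48 h arrays and 143, 169.5 and 114 on the siLsd1 48 h arrays. It rose with time by 2.05 in siC cells (adjusted p = 2.03e-04) and by 1.70 in siLsd1 cells (adjusted p = 0.00141). The other 3 probe sets changed by -0.11, -0.22 and -0.01 in siC cells, and none of them was called. Averaging the 4 probe sets turned the Rbbp4 change with time in siC cells to 0.43 (adjusted p = 0.00661) and that in siLsd1 cells to 0.45 (adjusted p = 0.00973). What the discordant probe set detects was not tested.

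**Figure D4:**
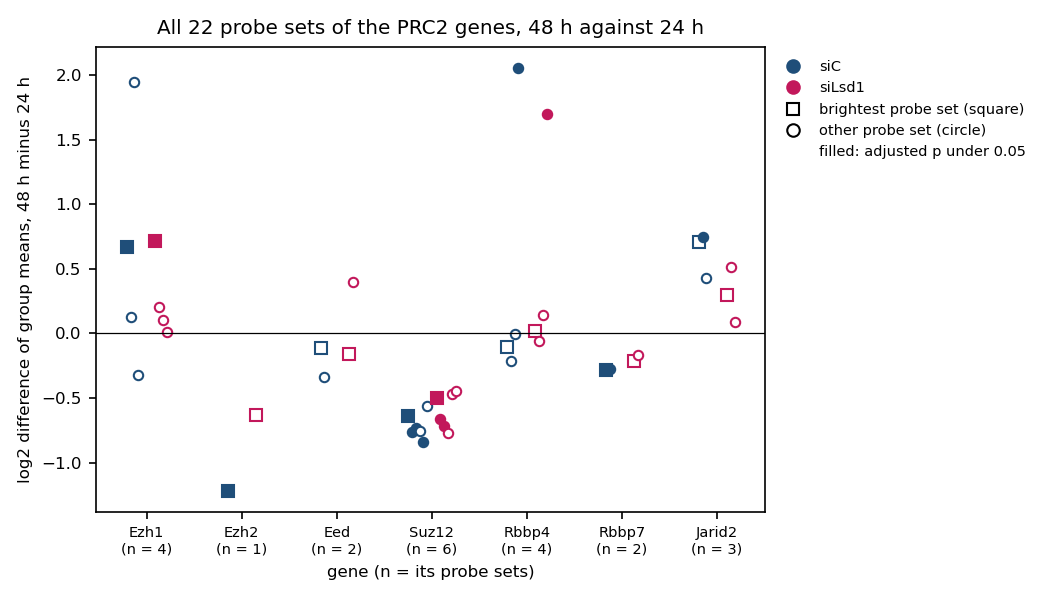
Log2 difference between the 48 h and 24 h group means for each of the 22 probe sets of the PRC2 genes, in siC and in siLsd1 cells; squares are the brightest probe set of a gene, and filled symbols had a limma adjusted p under 0.05 over all probe sets. The 6 Suz12 probe sets lie together below 0, and 1 of the 4 Rbbp4 probe sets lies far above the other 3.

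Jarid2, the accessory subunit, was lower on every siLsd1 array than on the siC arrays of its time. Its brightest probe set read 102 and 95.6 on the siC 24 h arrays, 74.6 and 74.7 on the siLsd1 24 h arrays, 155, 166 and 163 on the siC 48 h arrays and 119, 124 and 52.4 on the siLsd1 48 h arrays. The groups did not overlap at either time, as for 61.4% of all genes at 24 h and 37.5% at 48 h. On this probe set siLsd1 48 h replicate 3 read lowest of all 10. The means were 98.7 ± 4.497 (SD, n = 2) and 74.6 ± 0.0636 (SD, n = 2) at 24 h and 161 ± 5.34 (SD, n = 3) and 98.6 ± 40.1 (SD, n = 3) at 48 h, for siC and siLsd1 in turn. In the fit to all arrays this probe set passed no test. The log2 change for siLsd1 against siC was -0.40 at 24 h (SE 0.33, adjusted p = 0.523), -0.81 at 48 h (SE 0.27, adjusted p = 0.0753) and -0.61 for the mean of both times (adjusted p = 0.0676).

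The Jarid2 calls differed with the arrays included. When siLsd1 48 h replicate 3 was left out, Jarid2 fell in siLsd1 cells at both times, with a log2 change of -0.40 at 24 h (adjusted p = 0.0202) and -0.41 at 48 h (adjusted p = 0.0179), and rose with time by 0.71 in siC cells (1.63-fold, adjusted p = 1.96e-04) and by 0.71 in siLsd1 cells (adjusted p = 4.40e-04). With all arrays these changes with time were 0.71 (SE 0.31, adjusted p = 0.123) and 0.30 (adjusted p = 0.570). The change at 48 h was also called without siLsd1 48 h replicate 1 (-1.0, adjusted p = 0.0496) or replicate 2 (-1.03, adjusted p = 0.0405), and that of the mean of both times without replicate 1 (-0.70, adjusted p = 0.0407), replicate 2 (-0.72, adjusted p = 0.0333) or replicate 3 (-0.40, adjusted p = 0.00162). On all 3 Jarid2 probe sets the log2 change was negative for siLsd1 against siC at both times and positive with time. Over all probe sets, 1 of the 3 was called for the mean of both times (-0.51, adjusted p = 0.0397, with 16.7% of probe sets called). For the rise with time in siC cells 1 was called (0.74, adjusted p = 0.0390, with 20.9% of probe sets called).

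Levels in bulk RNA cannot tell fewer cells of a kind from less RNA per cell. Genes of the cell cycle moved with time in the same arrays as Ezh2, Suz12 and Rbbp7. Of 21 tested E2F factors and replication genes, 18 were lower and 0 higher at 48 h in siC cells, with a median log2 change of -1.73 beside 0.01 over all genes tested. In siLsd1 cells 16 of the 21 were lower and 0 higher, with a median of -1.06. Of all genes, 12.2% were called as lower with time in siC cells and 7.13% in siLsd1 cells. Relative to the siC 24 h mean, the median of this list was -0.41 and -0.17 on the siLsd1 24 h arrays, -1.80, -1.79 and -1.60 on the siC 48 h arrays and -1.49, -1.44 and -1.29 on the siLsd1 48 h arrays. Its part in the falls of Ezh2, Suz12 and Rbbp7 was not tested. Between siLsd1 and siC, E2f8, a repressor of the E2F family, fell by 1.61 at 24 h (adjusted p = 0.00823), and Rbl1, a pocket protein that binds E2F factors, rose by 0.71 at 48 h (adjusted p = 0.00268). These were the only genes of the list called at 24 h and 48 h in the fit to all arrays. Without siLsd1 48 h replicate 3 there were 1 higher and 9 lower at 24 h and 3 higher and 0 lower at 48 h. In that fit 25.5% and 18.1% of all genes were called at these times.

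The genes most alike in pattern differed between the PRC2 genes. Across the 10 arrays, which fall into 4 groups and share their time and treatment, Ezh2 was most alike to Kif22, Mad2l1 and Cdc20, all genes of mitosis, with a Pearson correlation of log2 intensity of 0.99 for each. Their log2 changes with time in siC cells were -2.03, -2.17 and -2.19. Ezh1 was most alike to Ube2h, Sppl3 and Dtx3 (0.996, 0.996 and 0.991) and Jarid2 to Loxl1, Plpp1 and Gaa (0.99 each). Eed was most alike to Dcun1d5, Slc66a1 and Mterf3 (0.99, 0.97 and 0.97), Suz12 to Pcdh19, Tubb2b and Fdft1 (0.98, 0.97 and 0.97), Rbbp7 to Rbmxl1, Stim2 and Sephs2 (0.99 each) and Rbbp4 to Gtpbp10, Rbm48 and Patj (0.95 each). Each set holds the 3 highest correlations over all genes tested, so high values follow from that choice. A link between these genes was not tested. Among the 7 themselves, Suz12 and Rbbp7 (0.92) were most alike, and Ezh1 and Ezh2 (-0.87) most opposed.

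Of 8 accessory and inhibitory genes of PRC2, 5 were tested, and Phf19, Epop and Ezhip were dim. At 24 h 1 was higher and 0 lower in siLsd1 cells, with a median of 0.14 beside -0.02 over all genes, and at 48 h 2 were higher and 1 lower, with a median of 0.36. Calls over all genes made up 5.39% at 24 h and 12.7% at 48 h. Lcor, whose locus also encodes a PRC2 accessory protein, rose by 0.61 at 24 h (adjusted p = 0.0174) and by 0.40 at 48 h (adjusted p = 0.0274). Aebp2, the partner of Jarid2 in one form of the complex, rose by 0.39 at 48 h (adjusted p = 0.0431). Phf1, a Polycomb-like protein of the other form, fell by 0.52 at 48 h (adjusted p = 0.0421). The counts without siLsd1 48 h replicate 3 were 1 higher and 1 lower at 24 h, the latter being Phf1, and 2 higher and 1 lower at 48 h, where Phf1 changed by -0.33 (adjusted p = 0.0131). That fit called 25.5% of all genes at 24 h and 18.1% at 48 h. With time in siC cells Phf1 rose by 1.06 (adjusted p = 0.00128) and Lcor by 0.47 (adjusted p = 0.0100), the 2 of the 5 called there, both named after their values were seen. This comparison with time called 24.2% of all genes, 12% as higher.

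Of 21 tested subunits of Polycomb repressive complex 1, which binds the mark that PRC2 leaves, 1 was higher and 0 lower in siLsd1 cells at 24 h (median 0.00), and 2 were higher and 1 lower at 48 h (median 0.10). At these times 5.39% and 12.7% of all genes were called. Pcgf5, a RING-finger subunit, rose by 0.51 at 24 h (adjusted p = 0.0363) and by 0.71 at 48 h (adjusted p = 0.00329). Phc2 rose by 0.57 (adjusted p = 0.00676) and Phc3, its relative, fell by 0.45 (adjusted p = 0.0243) at 48 h. With time in siC cells 2 were higher and 2 lower, and Pcgf5 and Phc2 were the ones that fell, by 0.80 and 0.74. Of all genes, 24.2% were called in this comparison with time (12% higher, 12.2% lower). The counts without siLsd1 48 h replicate 3 were 3 higher and 3 lower of 21 at 24 h, beside 25.5% of all genes called, and 3 higher and 2 lower at 48 h, beside 18.1%.

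Of the enzymes that undo the marks, the lysine 27 demethylases passed no test in the fit to all arrays. Kdm6a and Kdm6b had log2 changes of 0.24 (adjusted p = 0.476) and 0.21 (adjusted p = 0.265) at 24 h and 0.22 (adjusted p = 0.330) and 0.14 (adjusted p = 0.280) at 48 h, and neither was called in any of the 6 comparisons. Kdm6b was called for the mean of both times without siLsd1 48 h replicate 3 (0.17, adjusted p = 0.0467), where 33.8% of all genes were called. Of the 4 genes of the H2A deubiquitinase, Asxl1, the subunit that activates it, fell by 0.31 at 48 h (adjusted p = 0.0331) and the other 3 were not called there. At 48 h 12.7% of all genes were called. With siLsd1 48 h replicate 3 left out, Asxl1 was also lower at 24 h (-0.38, adjusted p = 0.00259), and Bap1, the catalytic subunit, named after its value was seen, was higher at 48 h (0.20, adjusted p = 0.0494). That fit called 25.5% of all genes at 24 h and 18.1% at 48 h. Of 12 tested partners that Rbbp4 and Rbbp7 have outside PRC2, Sap30, of the Sin3 histone deacetylase complex, rose by 1.12 in siLsd1 cells at 48 h (adjusted p = 0.00263), and 0 were called at 24 h. The fit to all arrays called 5.39% of all genes at 24 h and 12.7% at 48 h. With time in siC cells 6 of these 12 fell and 0 rose, with a median of -0.26, and in siLsd1 cells 4 fell and 0 rose. Falls were called for 12.2% and 7.13% of all genes. Leaving out siLsd1 48 h replicate 3 gave 8 and 7 falls with time, and between the siRNAs 2 higher and 2 lower at 24 h and 1 higher at 48 h. The shares of all genes called there were, in the same order, 40.4%, 38.3%, 25.5% and 18.1%.

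Of 28 developmental and arrest genes known as silenced by PRC2, 27 were on the array, and 14 passed the dim filter and were tested. Wnt10b, a Wnt gene that holds back fat cell formation, stayed at or below 4.32 intensity units on every array and was not tested. In siLsd1 cells 1 of the 14 was higher at 24 h and 0 lower, with a median of 0.35 beside -0.02 over all genes, and 0 were called at 48 h, with a median of 0.13. Calls over all genes made up 5.39% at 24 h and 12.7% at 48 h. The gene called at 24 h was Cdkn2b, an inhibitor of cyclin D kinases, which rose by 0.39 (adjusted p = 0.0492). Its neighbour Cdkn2a had log2 changes of 0.04 (adjusted p = 0.802) and 0.10 (adjusted p = 0.297), and fell with time in siC cells by 0.29 (adjusted p = 0.0111). With time in siC cells 1 of the 14 was higher and 2 lower, with a median of -0.02, where 24.2% of all genes were called. Without siLsd1 48 h replicate 3 there were 3 higher and 1 lower at 24 h and 0 called at 48 h, beside 25.5% and 18.1% of all genes called.

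**Figure D5:**
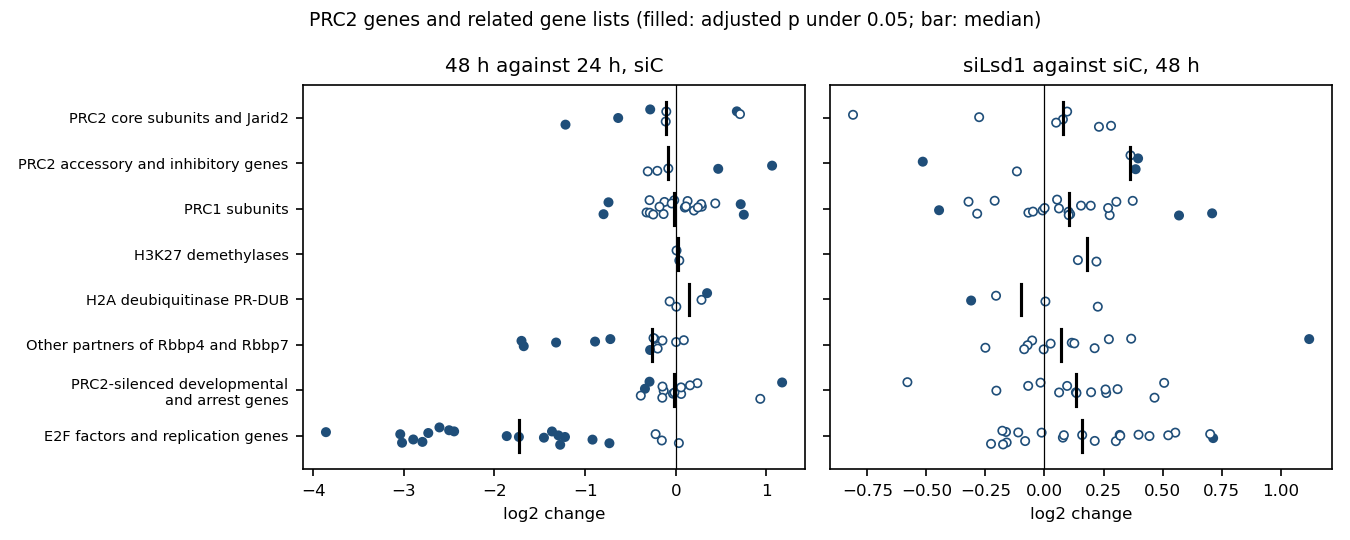
Log2 change of each tested gene of the PRC2 genes and 7 related lists, 48 h against 24 h in siC cells (left) and siLsd1 against siC at 48 h (right), filled where the limma adjusted p was under 0.05, with the list median as a bar; vertical jitter carries no meaning. With time the E2F and replication genes lie furthest below 0, at a median of -1.73, and on the right no PRC2 gene is filled.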

How the data were processed

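The values deposited are linear intensities, 1 for each probe set on each of 10 Affymetrix arrays; the cRNA carried biotin, per the labels. The authors' summarising and normalizing steps and their genome build are not given in the sources, so coordinates are printed for promoters alone, in the build of the RefSeq table. Intensities were turned into log2 as they stood, with no further scaling. Gene symbols came from the platform annotation, and probe sets with several symbols (932) or no gene (9160) were left out.

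For each gene the probe set with the highest mean represented the gene. The 25% of genes with the lowest mean (4549 genes, up to 18.4 intensity units) were left out as dim. The 4 group means were fitted with limma 3.58.1 in R 4.3.3 (lmFit, eBayes with an intensity trend), with 6 residual degrees of freedom, and 6 comparisons were adjusted each over 13644 genes by the Benjamini-Hochberg method. A second fit covered the 26208 probe sets with 1 symbol above the lowest 25%. Means ± SD are of linear intensities. Intervals are 95% intervals of the fit. The fit was tested on simulated data.

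The members, the 12 gene lists and the alternatives were chosen with earlier results of these data known. Named genes are the 7 members, Kdm1a, Wnt10b, Cdkn2a, Kdm6a and Kdm6b, up to 3 called genes of each other list with the largest fold at 24 h or 48 h, and for each member the 3 genes with the highest correlation. From the lists without a called gene, the 2 with the smallest p for the mean of both times were, as log2 changes at 24 h and 48 h, Cd68 (0.58 and 0.47), Adgre1 (0.13 and 0.30), Kdr (-0.0048 and 0.24), Tek (0.04 and 0.36) and, as the one tested gene of its list, Adipoq (-0.29 and -0.58). Of the preadipocyte markers, Thy1 fell by 0.83 at 24 h (adjusted p = 0.0112) and by 0.83 at 48 h (adjusted p = 0.00412).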

Additional observations from a re-analysis of the deposited data

How the results depend on the processing

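Between the siRNAs, no setting gave more than 1 higher member, and the number of arrays limits what can be called. Fitting the compared groups alone called 3183 genes at 24 h (members: 1 higher, 2 lower) and 250 at 48 h, 2 higher members with time in siC cells, and 347 genes with 0 higher and 0 lower members with time in siLsd1 cells. Averaging the probe sets of each gene called 427 genes at 24 h, 948 at 48 h and 2134 over both times, the last with 0 higher members. Without the intensity trend 402 and 1006 genes were called at 24 h and 48 h and 1 for the difference of the siLsd1 changes, where 16 added intensity units gave 3. All probe sets gave 5483 calls with time in siC cells. In siLsd1 cells 1 lower member was left with time with all probe sets, quantile normalization or no trend. At 48 h 1 higher member (Eed) was called with the lowest 50% left out, quantile normalization or centred arrays, and the first and last of these gave 1 lower member (Ezh1) for the mean of both times. The causes were not tested.

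With each array left out in turn, genes called ranged from 30 to 3478 at 24 h, 382 to 2473 at 48 h, 1346 to 4617 for the mean of both times, 0 to 201 for the difference of the siLsd1 changes, 1482 to 5510 with time in siC cells and 357 to 5232 in siLsd1 cells, each highest without siLsd1 48 h replicate 3. Higher and lower members ranged from 0 to 1 and 0 to 3 at 24 h, 0 to 1 and 0 to 1 at 48 h, 0 to 1 and 0 to 2 for the mean, 0 to 2 and 2 to 3 with time in siC cells and 0 to 2 and 0 to 4 in siLsd1 cells.

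Log2 changes that turned sign were uncalled before, and after, except Rbbp4 with time in siC cells (0.43 with the mean of probe sets, adjusted p = 0.00661). The mean of probe sets also turned Ezh1 (0.30) and Eed (-0.15) at 24 h, Rbbp4 at 48 h (-0.048), Ezh1 (0.13) and Rbbp4 (-0.057) for the mean of both times, Ezh1 (-0.35) and Eed (0.34) in the difference of the siLsd1 changes, and Eed with time in siLsd1 cells (0.12). Quantile normalization turned Rbbp4 (-0.0079) and Rbbp7 (-0.047) for the mean of both times. Centring turned Eed (0.015) in the difference of the siLsd1 changes and Rbbp4 (-0.054) with time in siLsd1 cells. Leaving out an array gave ranges through 0 for Rbbp7 at 24 h (-0.097 to 0.054), Rbbp7 (-0.0057 to 0.088) and Suz12 (-0.0104 to 0.16) at 48 h, Rbbp7 (-0.024 to 0.052), Suz12 (-0.035 to 0.052) and Ezh2 (-0.16 to 0.0073) for the mean, Ezh1 (-0.059 to 0.20), Eed (-0.12 to 0.0101) and Rbbp7 (-0.0043 to 0.15) in the difference of the siLsd1 changes, and Rbbp4 with time in siLsd1 cells (-0.031 to 0.058).

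Same-numbered samples deviated together with a correlation of -0.074 at 24 h and of -0.19, 0.054 and -0.064 at 48 h. Differently numbered samples gave 0.074 at 24 h and from -0.12 to 0.15 at 48 h. With so few arrays in a group, these values cannot show whether the numbers pair the samples. With the number as a replicate block, 1 lower member (Jarid2) was called at 48 h (-0.81, adjusted p = 0.0489) and 1 for the mean of both times (-0.61, adjusted p = 0.0419), and 2 higher members with time in siC cells (Jarid2 0.91, adjusted p = 0.0370). In these comparisons the block fit called, in the same order, 2006, 3273 and 3697 of the 13644 genes tested. Rbbp4 with time in siLsd1 cells was -0.025 under the block.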
